A study of Mus musculus with 8 samples.

Results

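The minichromosome maintenance genes Mcm2, Mcm3, Mcm4, Mcm5, Mcm6 and Mcm7 and the nucleotide synthesis genes Tk1, Tyms, Rrm1 and Rrm2 were read in cultured mouse aortic smooth muscle cells given a moR-21 mimetic. These 10 genes were taken by symbol from the 18138 symbols of the array table, and each of their 22 probes was read on its own. Of these probes, 15 were tested, at least 1 for each of the 10 genes, and all 15 had a detection p-value under 0.01 on all 8 arrays. The other 7 were at background on every array. One group of 3 samples received a scrambled small RNA and the other group of 3 samples received the moR-21 mimetic. Both groups were primary smooth muscle cells grown out from pieces of several mouse aortas, transfected at 5 nM, and RNA was taken 48 h later. The source labels and the study name smooth muscle cells, while the description label of the samples writes AoECs, and this conflict was not settled here. The sources used here give neither the age of the mice nor whether the 3 samples of a group came from separate cultures. A p-value therefore sets a difference only against the spread between these samples, which may be technical. For the limma p-values the spread of each probe is drawn towards that of all tested probes. The series asks which transcripts of these cells differ when the moR-21 mimetic is present.

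moR-21 is a microRNA-offset RNA, a small RNA cut from the stretch of the Mir21a hairpin that lies directly before mature miR-21a-5p. That stretch is printed 5′ to 3′ because it is the source of the treatment. The seed and sponge designs of the study's methods place the first base of moR-21 directly before this stretch, where the RefSeq hairpin begins. The capitals therefore mark bases 2 to 8 of moR-21, the positions that serve as the seed of a microRNA. The sequence is RefSeq's, on the minus strand of GRCm38.p6, chr11:86584142-86584158.

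Mir21a hairpin, 5′ arm before miR-21a-5p: UGUACCAccuugucgga

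The proteins of Mcm2 to Mcm7 form a ring of 6 different subunits, the replicative helicase, which is loaded onto origins before S phase and unwinds DNA ahead of the replication fork. DNA synthesis also needs a supply of deoxynucleotides. Ribonucleotide reductase, made of the large subunit Rrm1 and the small subunit Rrm2, makes deoxynucleotides from ribonucleotides, thymidylate synthase (Tyms) methylates dUMP to dTMP, and thymidine kinase 1 (Tk1) makes dTMP from salvaged thymidine. Many of these genes are known to be transcribed under E2F control as cells enter S phase, and vascular smooth muscle cells, which rarely divide in the healthy artery, express them when they proliferate. In the study's own assay, at a higher dose than on these arrays, the moR-21 mimetic lowered the growth of these cells. The arrays do not measure growth. In RNA from a whole culture, a change in the number of cells that carry a transcript and a change in the amount per cell cannot be told apart.

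Intensities were normalized to a common distribution over the arrays and are given on the log2 scale, and every change is the moR-21 mean minus the control mean on that scale. A probe counted as called when its fold exceeded 1.3 and its limma adjusted p was below 0.002, and "rose" or "fell" is written only of called probes. The arrays had a median intensity of 102 to 109 units and 10285 to 10512 detected probes, and 811 of the 11651 tested probes were called. For control sample 1 and for moR-21 sample 3 the values of 2 arrays were averaged. Over the 15 tested probes these repeat arrays differed by a median of 0.07 on the log2 scale and at most by 0.30. A marker counted as detected when its detection p-value was under 0.01 on at least 1 array. Of 10 smooth muscle markers, 7 were detected, and the defining markers Myh11, Cnn1 and Myocd were not detected. Their summed normalized intensity was 10243 to 10609 in the control samples and 13009 to 13863 in the moR-21 samples, and Acta2, smooth muscle actin, the brightest of them, rose by 0.40. The other 6 were not called: Des differed by −0.38, with every moR-21 sample below every control, Mylk by 0.24, Tagln by 0.20 and Lmod1, Cald1 and Smtn by 0.05, −0.00093 and −0.05. Tagln and Lmod1 were near background, with control means of 6.74 and 6.79 on the log2 scale. Of 8 endothelial markers only Vwf was detected, with an intensity of 117 to 120 in control and 118 to 127 in moR-21 samples. The 2 detected of 6 mesothelial markers summed to 771 to 780 in control and 402 to 416 in moR-21 samples, and Upk3b fell by 1.24. The 5 detected of 6 fibroblast markers summed to 17469 to 18175 in control and 15085 to 15925 in moR-21 samples. Only Thy1 was higher among them, with a rise of 0.53. Lum fell by 0.56, and Dcn, the brightest, Col1a1 and Pdgfra differed by −0.22, −0.20 and −0.17 and were not called. For each of these lower fibroblast markers every moR-21 sample was below every control. The 3 detected of 8 macrophage and leukocyte markers summed to 1622 to 1688 in control and 1465 to 1498 in moR-21 samples, with the bright Cd14 at −0.27 and not called, while the dimmer Lyz2 rose by 0.48. The part of these marker shifts in the values that follow was not tested.

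In the moR-21 samples, Mcm3, Mcm4, Tk1 and Tyms rose, each at 1 probe, and none of the 15 tested probes was called lower. The 4 called probes are 26.7% of those tested, while 3.12% of all tested probes were called higher and 3.85% were called lower. On the looser rule of an adjusted p under 0.05 at any fold, 11 of the 15 probes were higher (73.3%) and 2 were lower, against 17.9% and 16% of all probes. At an unadjusted p under 0.05 the numbers were also 11 and 2 of the 15, against 22.4% and 19.8% of all probes. In 11 probes every moR-21 sample was above every control sample and in 2, both of Rrm2, every one was below. Over all tested probes, 23.7% were separated upwards and 21.2% downwards in this way. The median change of the 15 probes was 0.21, and that of all tested probes was 0.0048. These counts describe probes, several of which read the same gene. The genes were chosen with earlier results of these data known, so shares above those of all probes are not independent support.

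**Figure D1:**
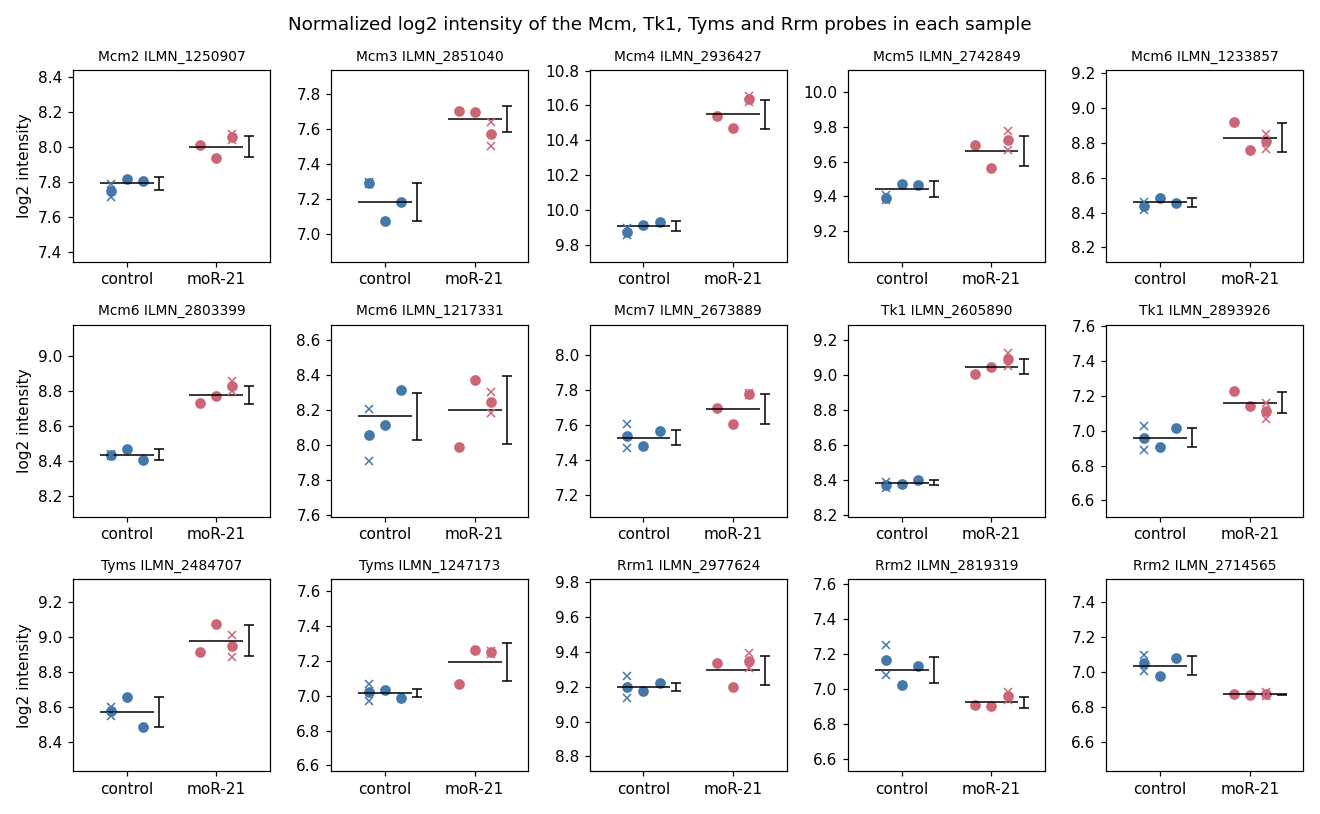
Normalized log2 intensity (vertical axis) of each of the 15 tested probes in the 3 control samples (blue) and 3 moR-21 samples (red). Filled points are samples, crosses are the repeat arrays of a sample, lines are group means and bars are ± 1 SD (n = 3), and every panel spans the same number of log2 units. The groups do not overlap in 13 panels, and they overlap for Mcm6 ILMN_1217331 and Rrm1.

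Among the helicase subunits, Mcm4 had the largest change without background correction. Its probe ILMN_2936427 read 9.88, 9.92 and 9.93 in control samples 1, 2 and 3 and 10.54, 10.47 and 10.64 in moR-21 samples 1, 2 and 3. All moR-21 samples lay well above all control samples. The means were 9.91 ± 0.0286 and 10.55 ± 0.0836 (SD, n = 3 each), a rise of 0.64 (SE 0.0512, limma adjusted p = 4.5e-07), or 1.56-fold. This change ranked 60 from the top among the 11651 tested probes.

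Mcm3 also rose. Its probe ILMN_2851040 read 7.29, 7.08 and 7.18 in the control samples and 7.71, 7.70 and 7.57 in the moR-21 samples. The groups were apart, but the spread within each, 7.18 ± 0.108 and 7.66 ± 0.0744 (SD, n = 3 each), was larger than for Mcm4. The rise was 0.48 (SE 0.0596, limma adjusted p = 3.0e-05), or 1.39-fold. The probe is dim, and with background removed by limma's normexp method its rise was 0.94, or 1.92-fold (adjusted p = 0.000805), above that of Mcm4 (0.69) and of Tk1 (0.83) with the same correction.

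Mcm6 was read by 3 tested probes, with measured differences of 0.37, 0.34 and 0.04. ILMN_1233857 read 8.44, 8.48 and 8.45 in control and 8.92, 8.76 and 8.81 in moR-21 samples, a difference of 0.37 (SE 0.0509, limma adjusted p = 6.8e-05). ILMN_2803399 read 8.43, 8.47 and 8.40 in control and 8.73, 8.77 and 8.83 in moR-21 samples, a difference of 0.34 (SE 0.0469, limma adjusted p = 7.0e-05). Both probes were higher in every moR-21 sample, and neither was called because the folds, 1.29 and 1.27, were under 1.3. With normexp correction the folds were 1.38 and 1.35, over 1.3. Neither was called there because the limma adjusted p, 0.00227 and 0.0023, was above 0.002. The call of ILMN_1233857 turned on single samples: without control sample 2, moR-21 sample 2 or moR-21 sample 3 the differences were 0.39, 0.41 and 0.38, and it was called in each case.

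The third probe of Mcm6, ILMN_1217331, read 8.06, 8.12 and 8.32 in control and 7.99, 8.37 and 8.24 in moR-21 samples. Here the groups overlapped, and moR-21 sample 1 was the lowest of all 6 samples. The difference was 0.04 (95% confidence interval −0.15 to 0.22, limma adjusted p = 0.786), and its repeat arrays of control sample 1 differed by 0.30, the most of the 15 probes. Its change was 0.33 below that of ILMN_1233857 and 0.30 below that of ILMN_2803399, each with an exact permutation p of 0.1 (two-sided, 3 against 3 samples), the smallest that 6 samples allow, and 0.15 after adjustment over 6 such pairs. With normexp correction these gaps were 0.42 and 0.38 (exact permutation p = 0.3 and 0.2), so a difference between the probes was not established. The first pair of Mcm6 probes differed by 0.03 (exact permutation p = 1).

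Mcm2, Mcm5 and Mcm7 had smaller differences and were not called. The Mcm2 probe ILMN_1250907 read 7.75, 7.82 and 7.81 in control and 8.01, 7.94 and 8.06 in moR-21 samples, a difference of 0.21 (95% confidence interval 0.11 to 0.32, limma adjusted p = 0.0038). The Mcm5 probe ILMN_2742849 read 9.39, 9.47 and 9.47 in control and 9.69, 9.56 and 9.72 in moR-21 samples, a difference of 0.22 (0.10 to 0.33, limma adjusted p = 0.0056). In all 3 genes every moR-21 sample was above every control sample, with moR-21 sample 2 the nearest to the controls. The Mcm7 probe ILMN_2673889, for which the table gives no definition line, read 7.54, 7.48 and 7.56 in control and 7.70, 7.60 and 7.78 in moR-21 samples, a difference of 0.17 (0.05 to 0.28, limma adjusted p = 0.0256).

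Subunits of the same ring thus covered changes from 0.17 to 0.64 at their brightest probes. The rise of Mcm4 exceeded the differences of Mcm2, Mcm5, Mcm6 and Mcm7 by 0.43, 0.43, 0.27 and 0.48, and that of Mcm3 by 0.17. With normexp correction the same probes ran from 0.24 for Mcm5 to 0.94 for Mcm3, and the order of Mcm4 and Mcm3 turned, as given above. Mcm4 was taken as the reference after its values were seen, so these are descriptions with no test. The mean log2 intensity over the brightest probes of Mcm2 to Mcm7 was 8.38, 8.37 and 8.40 in the control samples and 8.76, 8.67 and 8.76 in the moR-21 samples.

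RefSeq's GRCm38.p6 places these genes on 5 chromosomes. Mcm3 (chr1:20802966-20820312) and Mcm6 (chr1:128331575-128359705) share chromosome 1, and the others are Mcm2 (chr6:88883474-88898780), Mcm4 (chr16:15623897-15637400), Mcm5 (chr8:75109468-75128439) and Mcm7 (chr5:138164583-138172111). Mcm7 also holds the hairpins of Mir25, Mir93 and Mir106b, which the array did not measure as small RNAs. Mcm4 lies 43 bases from Prkdc, a DNA repair kinase gene. The pair of Prkdc probes, detected on 1 and 3 of the 8 arrays, differed by 0.00 and 0.05 and were not called.

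Promoter windows of 300 bases, 250 before and 50 after a start site, were present in the RefSeq table for 9 of the 10 genes, and Mcm4 had none. The E2F letters TTTCCCGC, TTTCGCGC, TTTGCCGC or TTTGGCGC were searched on both strands, with overlapping matches counted. They were found for Mcm3, Mcm5, Mcm6 and Mcm7, 4 of the 9 genes, and in 2.27% of the 32851 windows of all genes. The 9 genes had 10 windows, and of the pair for Mcm7 the one at chr5:138171217-138171516 held no match. Here and below, the counts for the 9 genes are per gene, while the shares over all genes are per window. The matches of Mcm3 began 19 and 38 bases after its start site, and a match of Mcm7 began 16 bases after the start site of its window. The stretches below carry the matches that lie before a start site and are shown for that position. Their genes, Mcm5, Mcm6 and Mcm7, were not called, and a part of E2F in their differences was not tested. Capitals mark the matched letters, with a pair of overlapping matches in Mcm5 and in the first stretch of Mcm6.

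Mcm5 promoter, chr8:75109345-75109374, plus strand: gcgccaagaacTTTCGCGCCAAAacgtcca
Mcm6 promoter, chr1:128359797-128359826, minus strand: tggcgtatgctTTTGGCGCGAAAagtgcgt
Mcm6 promoter, chr1:128359734-128359763, minus strand: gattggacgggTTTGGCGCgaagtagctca
Mcm7 promoter, chr5:138172030-138172059, minus strand: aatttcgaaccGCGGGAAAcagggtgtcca

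Among these 4 genes only Mcm3 was called. The windows of Tk1 and Tyms, both called, held none of these letters, nor did those of Mcm2, Rrm1 and Rrm2. The letters CCAAT were in the windows of 7 of the 9 genes (all but Tk1 and Tyms) and in 37.4% of all windows, and GGGCGG was in 7 (all but Mcm5 and Rrm1) and in 35.7%. A match of letters is a description and not a binding site.

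**Figure D2:**
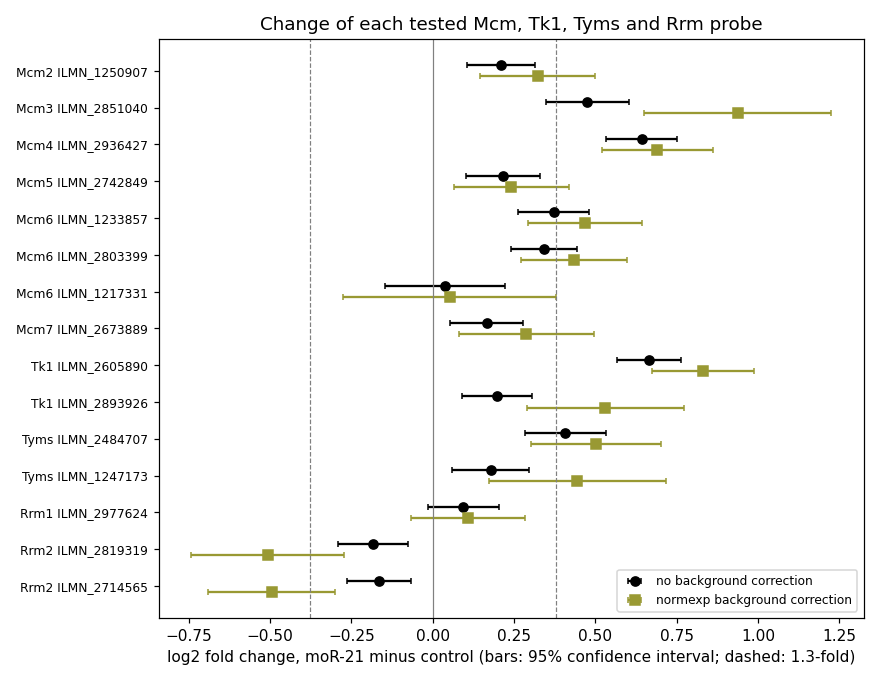
Log2 fold change of each of the 15 tested probes, moR-21 minus control, with 95% confidence intervals from limma, without background correction (black) and with normexp correction (olive). Dashed lines mark a 1.3-fold change; 13 probes lie above 0 and both Rrm2 probes lie below it, and the dim probes of Mcm3, Tk1, Tyms and Rrm2 move farthest from 0 with the correction.

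Of the thymidylate genes, Tk1 (chr11:117815519-117826087) had the largest change of all 10 genes without background correction, and with normexp correction it came after Mcm3. Its probe ILMN_2605890 read 8.37, 8.38 and 8.40 in the control samples and 9.01, 9.05 and 9.09 in the moR-21 samples. The control samples were nearly alike and every moR-21 sample was far above them. The means were 8.38 ± 0.0146 and 9.05 ± 0.0422 (SD, n = 3 each), a rise of 0.67 (SE 0.0454, limma adjusted p = 1.0e-07), or 1.59-fold, and it ranked 54 among the rises of the 11651 probes.

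A dimmer Tk1 probe, ILMN_2893926, read 6.96, 6.91 and 7.02 in control and 7.23, 7.14 and 7.11 in moR-21 samples. The groups were again apart, but the difference was 0.20 (SE 0.0501, limma adjusted p = 0.0070) and was not called. The change at the bright probe exceeded that at the dim one by 0.47 (exact permutation p = 0.1, two-sided, 3 against 3 samples). With normexp correction the dim probe differed by 0.53 (adjusted p = 0.0057, not called) and the gap between the probes was 0.30 (exact permutation p = 0.2).

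Tyms (chr5:30038546-30073645) rose at ILMN_2484707, which read 8.57, 8.66 and 8.48 in control and 8.91, 9.08 and 8.95 in moR-21 samples. Each moR-21 sample was above each control sample, and the means were 8.57 ± 0.0874 and 8.98 ± 0.0869 (SD, n = 3 each). The rise of 0.41 (SE 0.0578, limma adjusted p = 9.1e-05), or 1.33-fold, was the smallest of the 4 called. It was under the threshold without control sample 3 or moR-21 sample 2, with 0.36 in both cases, with array A alone of the repeated samples (0.38), and with normexp correction (0.50, adjusted p = 0.0030).

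The dimmer Tyms probe ILMN_1247173 read 7.02, 7.03 and 6.99 in control and 7.07, 7.26 and 7.25 in moR-21 samples, a difference of 0.18 (SE 0.0552, limma adjusted p = 0.0218). It was higher in every moR-21 sample, least in moR-21 sample 1, and was not called. The change at ILMN_2484707 was larger by 0.23 (exact permutation p = 0.1), and with normexp correction, where the dim probe differed by 0.45, it was larger by 0.06 (exact permutation p = 0.8). The transcribed pseudogene Tyms-ps (chr10:87966671-87968017) had its own probe, which read 8.09, 8.23 and 8.27 in control and 8.52, 8.65 and 8.53 in moR-21 samples, a difference of 0.37 (limma adjusted p = 0.000184) that was not called. How far the Tyms probes and this probe read the same transcripts was not tested, since probe sequences were not used here, and the rise of Tyms is uncertain to that extent.

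The ribonucleotide reductase genes were not called. Rrm1 (chr7:102441695-102469771), the large subunit, read 9.20, 9.18 and 9.22 in control and 9.33, 9.20 and 9.35 in moR-21 samples at ILMN_2977624. moR-21 sample 2 lay among the controls. The difference was 0.09 (95% confidence interval −0.02 to 0.20, limma adjusted p = 0.183), so a rise of up to 0.20 lies within the interval.

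Rrm2 (chr12:24708254-24714146), the small subunit, was lower at both of its probes. ILMN_2819319 read 7.17, 7.02 and 7.13 in control and 6.91, 6.90 and 6.96 in moR-21 samples, a difference of −0.18 (95% confidence interval −0.29 to −0.08, limma adjusted p = 0.0111). ILMN_2714565, which has no definition line in the table, read 7.05, 6.98 and 7.08 in control and 6.87, 6.87 and 6.88 in moR-21 samples, a difference of −0.17 (−0.26 to −0.07, limma adjusted p = 0.0129). At both probes all moR-21 samples were below all control samples, and neither was called. Both probes are dim, and with normexp correction the differences were −0.51 (adjusted p = 0.0063) and −0.50 (adjusted p = 0.0029), still not called. The pair differed from each other by −0.02 (exact permutation p = 0.5).

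**Figure D3:**
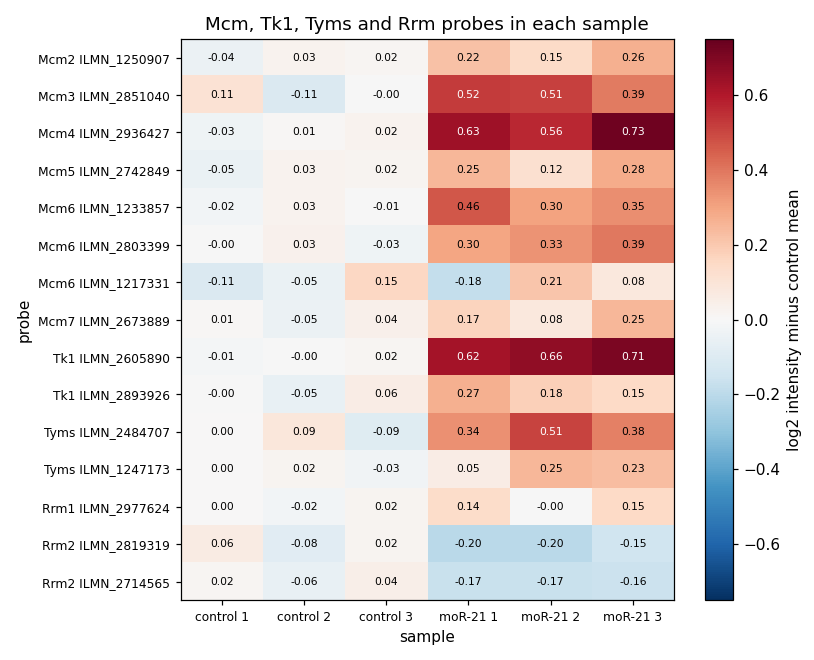
Log2 intensity of each of the 15 tested probes (rows) in each of the 6 samples (columns), minus the mean of the 3 control samples, with the value written in each cell and shown by colour (red above, blue below the control mean). The moR-21 columns are above 0 except for Rrm2, moR-21 sample 1 of Mcm6 ILMN_1217331 and moR-21 sample 2 of Rrm1.

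moR-21 sample 2 was the lowest of the moR-21 samples at 8 of the 15 probes, moR-21 sample 1 at 5 and moR-21 sample 3 at 2. The 7 probes at background were a pair for Mcm4, 1 for Mcm6, 1 for Tk1 and 3 for Tyms. Their intensities before normalization lay between 89.7 and 108 with a detection p-value of at least 0.0501 on every array. No change was computed for them, and they are not counted among the 15.

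Other genes of replication and nucleotide supply were read at their brightest tested probe. On this reading 3.41% of the 8727 tested genes were called higher and 4.38% lower, 18.8% and 17.3% passed an adjusted p under 0.05 in each direction, and 51.8% were above 0. The 10 genes had a median change of 0.29, with 9 above 0, and all genes one of 0.0056. Of 140 genes on 6 lists, 105 were tested, 15 rose and 2 fell. The lists too were chosen with earlier results of these data known, so their counts are descriptions.

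Of 13 tested genes of origin licensing and helicase activation, 3 rose (23.1%), 7 passed the looser rule upwards and 0 downwards, and the median was 0.16. Cdt1, which loads the Mcm ring onto origins, read 8.53, 8.47 and 8.45 in control and 8.84, 9.03 and 9.08 in moR-21 samples, a rise of 0.50 (limma adjusted p = 2.0e-05). Gins4, a subunit of the GINS complex that joins the ring in the active helicase, rose by 0.43 and Orc6, an origin recognition subunit listed as Orc6l, by 0.39. In all 3 genes every moR-21 sample was above every control sample.

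Of 26 tested genes of the replication fork, 5 rose (19.2%) and 0 fell, 14 passed the looser rule upwards and 0 downwards, and the median was 0.15. Rpa3, of the complex that coats single-stranded DNA, read 8.69, 8.76 and 8.78 in control and 9.19, 9.36 and 9.31 in moR-21 samples, a rise of 0.55 (limma adjusted p = 2.9e-06). Chaf1b, of the histone chaperone that works behind the fork, rose by 0.53, DNA ligase 1 (Lig1) by 0.44, the fork protection gene Tipin by 0.41 and the polymerase α subunit Pola2 by 0.38. Lig1 has another pair of probes, which differed by 0.01 and 0.25 and were not called.

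Of 15 other tested genes of deoxynucleotide supply, 1 rose (6.67%), and the median was 0.02, with 5 past the looser rule upwards and 2 downwards. The gene that rose was Dtymk, the thymidylate kinase that takes the product of Tk1 and Tyms onwards, with 8.85, 8.89 and 8.93 in control and 9.28, 9.50 and 9.39 in moR-21 samples, a rise of 0.50 (limma adjusted p = 1.3e-05). The 2 genes past the looser rule downwards were Dguok, at −0.24 (limma adjusted p = 0.000785), and Dut, which makes dUMP, at −0.14. In both, every moR-21 sample was below every control, and neither was called. On the same list, the mitochondrial thymidine kinase Tk2 differed by −0.09 and was not called, and the deoxycytidine kinase Dck was at background.

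Of 18 tested genes of purine and pyrimidine synthesis, 2 rose and 1 fell, with a median of 0.03. Impdh2, which makes the precursor of guanine nucleotides, rose by 0.57, and the purine salvage gene Hprt, listed as Hprt1, rose by 0.48, with other probes at 0.10 and 0.29 that were not called. Ctps, CTP synthase, read 10.73, 10.72 and 10.64 in control and 9.80, 9.59 and 9.71 in moR-21 samples. It fell by 0.99 (limma adjusted p = 1.7e-08), and its other probes fell by 0.79 and 0.48. On the looser rule 5 genes of this list were higher and 3 lower.

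Of 15 tested E2F and G1/S regulators, 1 rose, with a median of 0.11. On the looser rule 3 were higher (20%), near the 18.8% of all tested genes, and 2 were lower. The lower genes were Mybl2, at −0.25, and E2f6, at −0.20. In both, every moR-21 sample was below every control, and neither was called. E2f1, an activator of S phase genes, read 8.10, 8.12 and 8.17 in control and 8.45, 8.59 and 8.49 in moR-21 samples, a rise of 0.38 (limma adjusted p = 4.7e-05) that was close to the 1.3-fold threshold. Of 18 tested mitosis genes, 3 rose and 1 fell, with a median of 0.11, and 6 were higher and 1 lower on the looser rule. Cyclin B1 (Ccnb1) rose by 0.49, Birc5, a subunit of the chromosomal passenger complex, by 0.43 and Cdk1, listed as Cdc2a, by 0.41. The spindle gene Prc1 read 10.65, 10.53 and 10.50 in control and 10.11, 9.98 and 10.27 in moR-21 samples, and fell by 0.44 (limma adjusted p = 0.00018).

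**Figure D4:**
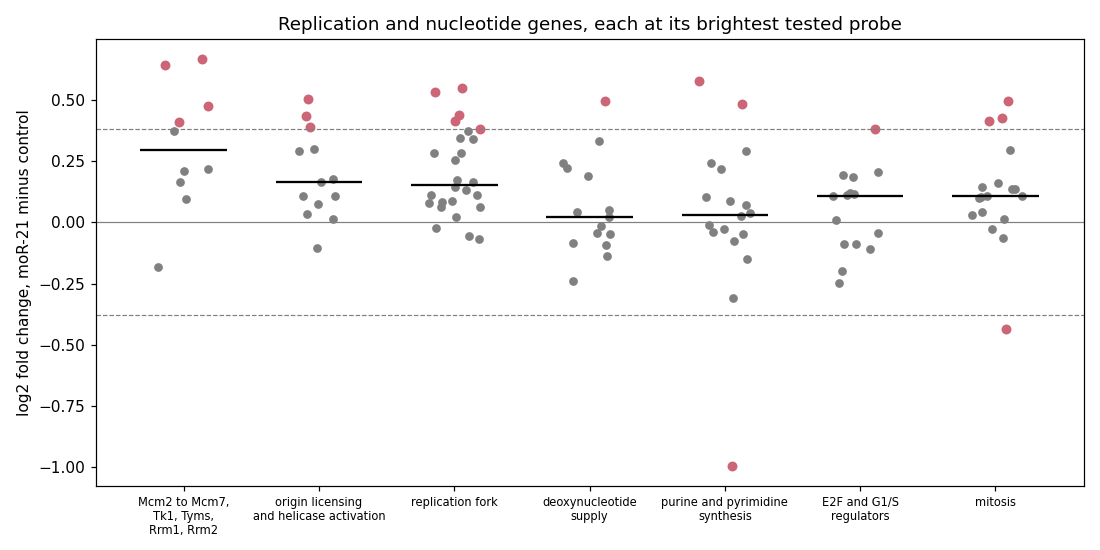
Log2 fold change, moR-21 minus control, of each tested gene at its brightest probe (points, red where called) for the 10 genes and 6 lists, with the median of each as a horizontal line and dashed lines at a 1.3-fold change. The medians are 0.29 for the 10 genes, 0.16 and 0.15 for the licensing and fork lists, and between 0.02 and 0.11 for the other 4, and the lowest point is Ctps at −0.99.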

How the data were processed

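RNA of 6 samples was read on 8 Illumina mouse BeadChip arrays. The authors deposited non-normalized probe intensities and, beside each, a detection p-value. Lumi is named per the labels, and no background correction or filter is stated for these deposited values. The labels' titles and column names gave each array's sample and treatment. Gene symbols are the table's own, older ones matched through RefSeq synonyms (13 genes).

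All arrays were quantile normalized and log2 transformed, and repeat arrays of a sample were averaged. limma 3.58.1 (R 4.3.3; lmFit, eBayes, Benjamini-Hochberg) compared treatments over 11651 probes with detection p under 0.01 on at least 1 array, with no covariate. Its eBayes step draws the spread of each probe towards that of all tested probes, and the limma SE and p-values rest on this spread. The fold and adjusted p cutoffs are the study's, and the detection cutoff was set here. Because background is not subtracted, changes of dim probes are understated. The number of arrays limits precision. Exact two-sided permutation tests compared probes of a gene.

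The genes named are the 10 genes at every probe, called genes of 6 lists, and the 5 genes most like Mcm2 to Mcm7. Prkdc and Tyms-ps were added for their position and sequence, and Dck, Dguok, Dut, E2f6, Mybl2, Tk2 and markers after their values were seen. The genes and lists were chosen with earlier results of these data known. Alternatives were normexp (offset 16), median scaling, cyclic loess, other detection filters, array A or B alone, a sample block, trend and robust, a replicate block, each sample left out, and other call rules. Figures were drawn with matplotlib 3.10.9 (Python 3.11.15).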

Additional observations from a re-analysis of the deposited data

How the results depend on the processing

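At an adjusted p under 0.05 at any fold, 3943 probes were called, of them 11 higher and 2 lower among the 15 Mcm, Tk1, Tyms and Rrm probes, and 48 list genes, 40 of them higher. At a fold over 1.5, 260 probes were called, 2 of the 15 higher (Mcm4 and Tk1), and 1 list gene, Ctps, so that 0 list genes were called higher. Under every other alternative Mcm3, Mcm4 and Tk1 were called higher and none of the 15 probes lower, and 3 to 5 of them were called. Tyms ILMN_2484707 lost its call under normexp, with array A alone, and without control sample 3 or moR-21 sample 2. Mcm6 ILMN_1233857 gained one with array B alone (0.39) and without control sample 2, moR-21 sample 2 or moR-21 sample 3. The change of Mcm6 ILMN_1217331, not called under any setting, was −0.032 with array A alone and ran from −0.048 to 0.14 as each sample was left out. List genes called numbered 14 to 17 in these settings, lowest under median scaling, under cyclic loess and without moR-21 sample 2.

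With the replicate number as a block, 815 probes were called, against 811 without it, and the same 4 of the 15 probes were called. Deviations of same-numbered samples from their group means correlated at 0.19, 0.04 and 0.06. moR-21 samples 1 and 3 correlated best with the control sample of their own number, and moR-21 sample 2 with control sample 3 (0.07). These values do not settle whether the numbers are pairs, and the main fit did not use them as pairs. The block changed no call among the 15 probes, and 17 list genes were called with it, as without it. Dim probes of Tk1, Tyms and Rrm2, near background, limit how well their changes are sized, as their values with normexp show.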

Other observations

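The genes outside the 10 whose level over the 6 samples was most like the mean of Mcm2 to Mcm7 were Slc41a2, Sqle, Zdhhc16, Tbc1d10c and Gucy1a3, with Pearson correlations of 0.997 to 0.998. They were chosen for these correlations, which largely restate the difference between the groups. In all, 928 of 8717 genes had one above 0.9. Sqle, squalene epoxidase of cholesterol synthesis, was higher in the moR-21 samples by 0.56, the magnesium transporter gene Slc41a2 by 0.45 and Gucy1a3, a subunit of the nitric oxide receptor guanylate cyclase, by 0.44, and these 3 were called. Zdhhc16 and Tbc1d10c differed by 0.32 and 0.33 and were not called.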
